A study of Rattus norvegicus with 16 samples.

Results

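The 7 genes described here, landmarks of astrocytes, were followed across 16 RNA-seq libraries from the rat spinal dorsal horn. They are Gfap (ENSRNOG00000002919), Vim (ENSRNOG00000018087), Aqp4 (ENSRNOG00000016043), Slc1a2 (ENSRNOG00000005479), Slc1a3 (ENSRNOG00000016163), Gja1 (ENSRNOG00000000805) and S100b (ENSRNOG00000001295). The genes were chosen by name, as 7 of the 30560 Ensembl gene IDs in the deposited table, with earlier results of these data known. The table itself holds no gene names, so the pairing of these IDs with names could not be checked against it. The libraries came from wild-type (WT) rats and from rats lacking LPA4 (knockout, KO), which is a lysophosphatidic acid receptor. Rats of both genotypes received either sham surgery or a spared nerve injury (SNI), where branches of the sciatic nerve are cut and another is left intact. Tissue was taken 28 days after surgery, and each of the 4 combinations of genotype and operation held 4 libraries. The titles of the KO sham samples give "WT" in place of the operation, and their columns are headed as KO sham. The labels give no strain, age, sex or side of the cord. They do not say whether each library is a separate rat, so p-values measure the spread between libraries, which may be technical.

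Astrocytes take up glutamate released at synapses, buffer potassium and move water along their end feet on blood vessels, and they are joined to each other by gap junctions. After injury to nerve or cord they can become reactive. In that state they typically thicken their processes and raise the intermediate filaments GFAP and vimentin, and the transporters and channels of resting astrocytes may fall. Astrocyte reactivity in the dorsal horn is a well-known accompaniment of nerve injury in pain models. Of the genes followed here, Gfap and Vim encode intermediate filaments, Aqp4 the water channel of the end feet, Slc1a2 and Slc1a3 the glutamate transporters GLT-1 and GLAST, Gja1 the gap junction protein connexin 43, and S100b a calcium-binding protein. Vim is also made by endothelial cells, fibroblasts and activated microglia, and S100b by oligodendrocytes.

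The 250 bases upstream of the annotated start of the filament genes are shown because Gfap and Vim are the usual pair of reactive markers. The sequences are from RefSeq on the build GRCr8, which is not the build named for the counts, and they were matched by symbol. The window of Gfap lies at chr10:88361662-88361911 on the minus strand and that of Vim at chr17:81577011-81577260 on the plus strand. Capitals mark matches, on either strand, to any of 6 short motifs. Each motif is given with the share of 33469 RefSeq windows of this length that hold it. The TATA box was searched as TATAAA and occurred in 12.9% of windows. The CCAAT box was searched as CCAAT and occurred in 34.0%. The GC box was searched as GGGCGG and occurred in 30.5%. The AP-1 site was searched as TGANTCA and occurred in 6.34%. The STAT site was searched as TTCNNNGAA and occurred in 7.67%. Part of the NFI site was searched as TTGGCA and occurred in 12% of windows.
Gfap: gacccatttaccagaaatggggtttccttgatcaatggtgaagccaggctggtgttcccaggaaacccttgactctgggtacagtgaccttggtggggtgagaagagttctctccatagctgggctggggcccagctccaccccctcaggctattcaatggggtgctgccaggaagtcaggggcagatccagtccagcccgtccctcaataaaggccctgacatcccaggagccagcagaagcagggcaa
Vim: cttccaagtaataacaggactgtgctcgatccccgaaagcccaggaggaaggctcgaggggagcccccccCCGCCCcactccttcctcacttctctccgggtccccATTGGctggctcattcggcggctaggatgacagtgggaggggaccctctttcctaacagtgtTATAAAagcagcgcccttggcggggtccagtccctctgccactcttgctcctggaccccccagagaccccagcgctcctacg
The Vim window held 3 matches, a GC box, a CCAAT box and a TATA box, and none of them overlapped. The Gfap window held 0 matches, which says only that these letters do not occur in it.

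Library totals ran from 15790243 to 28090152 expected counts, which are estimated read counts per gene. All 7 genes were well covered, with at least 523 counts in every library, and all passed the filter on low counts that left 15237 genes for testing. Together they took 0.539% to 0.908% of a library's counts. WT sham replicate 2 and KO SNI replicate 1 stood apart from the rest. Their median correlation with the other libraries was 0.949 and 0.973, against 0.980 to 0.987 in the remaining 14. Values are given as CPM, which are counts scaled to a common library size, here with TMM factors. They are compared between libraries within a gene, and the levels of different genes are not compared, since gene lengths were not used. Markers of other cell types were not analysed here, because the files pair no other ID with a name.

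None of the 7 astrocyte genes was called in any comparison. Called means an adjusted p under 0.05 in edgeR's quasi-likelihood test over all 15237 genes. After SNI in WT rats 0 of the 7 were called, against 0.0853% of all genes, and after SNI in KO rats also 0 of 7, against 0.105%. Between KO and WT the count was 0 of 7 after sham and 0 of 7 after SNI, against 0.0131% of all genes in each. A background this low leaves little room for a call among 7 genes, so these counts do not set them apart from other genes. In each of these 4 comparisons, all 7 genes had overlapping groups, where 3.14% (WT), 3.64% (KO), 2.0% (sham) and 1.19% (SNI) of all genes had groups that did not overlap. DESeq2 and limma voom called 0 of the 7 as well. At an unadjusted p under 0.05, edgeR gave 1 of the 7 in KO against WT after sham, against 3.81% of all genes. It gave 1 of 7 in the interaction, against 2.99%, and 0 of 7 in the other comparisons, against 1.19% to 5.27%. In whole tissue, fewer astrocytes and less RNA per astrocyte cannot be told apart, and this holds for every value that follows.

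**Figure D1:**
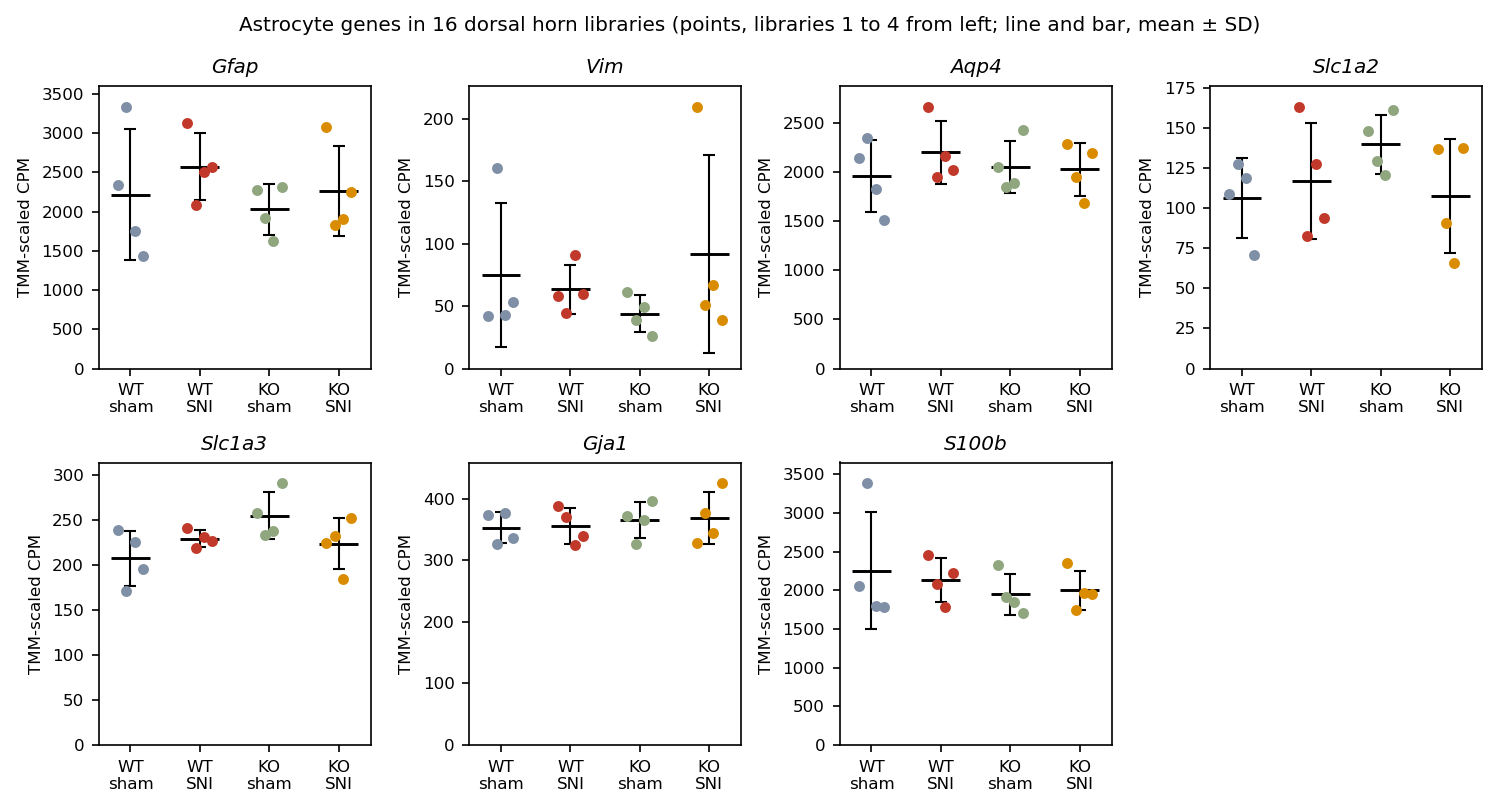
TMM-scaled CPM (vertical axes, from 0) of each gene in the 4 groups, with 1 point per library and the mean ± SD of 4 libraries in black. The groups overlap for every gene, Vim has single high libraries in WT sham (161 CPM) and KO SNI (209.6 CPM), and Gja1 stays within 325 to 425 CPM.

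Gfap, the defining filament of reactive astrocytes, did not pass the test after SNI. It stood at 2336, 3333, 1755 and 1428 CPM in WT sham replicates 1 to 4. In WT SNI it stood at 3123, 2089, 2506 and 2564 CPM. The sham libraries therefore spanned the whole range of the injured ones, with WT sham replicate 2 above all 4 of them and the other 3 sham libraries between 1428 and 2336 CPM. The WT sham mean was 2213 ± 836 CPM and the mean after SNI 2571 ± 425 CPM (both SD, n = 4). The log2 fold change was 0.22 (SE 0.23, edgeR adjusted p = 0.999), or 1.16-fold with a 95% interval of 0.825 to 1.64. A 2-fold rise thus lay outside the interval, while a rise of 1.5-fold lay inside it.

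In KO rats Gfap was at 2273, 1912, 1623 and 2310.2 CPM in the sham libraries and at 3073, 1825, 1899.9 and 2248 CPM in the SNI libraries. Only KO SNI replicate 1 lay above the KO sham range. The log2 fold change was 0.16 (SE 0.23, edgeR adjusted p = 0.995), or 1.11-fold (95% interval 0.791 to 1.57). The size of the Gfap difference depended on single libraries, among them WT sham replicate 4, which did not stand apart from the rest. Without WT sham replicate 2, the WT log2 fold change was 0.48 (SE 0.20, unadjusted p = 0.0302, edgeR adjusted p = 0.757), and without WT sham replicate 4 it was 0.05 (SE 0.22, edgeR adjusted p = 0.975). Without KO SNI replicate 1, the KO value was -0.03 (SE 0.23, edgeR adjusted p = 0.997). Without WT sham replicate 2 and KO SNI replicate 1, Gfap was 0.48 higher after SNI in WT (SE 0.17, edgeR adjusted p = 0.461). In KO it was then 0.03 lower (log2 fold change -0.03, SE 0.17, edgeR adjusted p = 0.979). The difference between these responses was then -0.51 (SE 0.24, edgeR adjusted p = 0.695), against -0.06 (SE 0.33, edgeR adjusted p = 0.991) with all libraries.

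Vim, the partner filament of Gfap in reactive astrocytes, was the most uneven of the 7. Its CPM was 41.8, 161, 42.8 and 53.1 in WT sham, and 58.4, 44.8, 90.6 and 59.5 in WT SNI. In KO sham it was 61.7, 39.2, 49.1 and 26.2, and in KO SNI 209.6, 50.8, 67.1 and 39.1. The 2 highest libraries, KO SNI replicate 1 and WT sham replicate 2, were also the pair with the lowest median correlation to the others, and they belonged to different genotypes and operations. The part of other cells in these high values was not tested.

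The Vim log2 fold change after SNI was 1.06 in KO (SE 0.55, unadjusted p = 0.0785, edgeR adjusted p = 0.995), with a 95% interval of 0.909-fold to 4.76-fold. In WT it was -0.23 (SE 0.55, edgeR adjusted p = 0.999), with an interval of 0.376-fold to 1.94-fold. With limma voom and all libraries the WT value was near 0 (0.005, SE 0.49). In edgeR the direction in WT and the size in KO each turned on 1 library. Without WT sham replicate 2, the WT value was 0.47 (SE 0.52, edgeR adjusted p = 0.877). Without KO SNI replicate 1, the KO value fell to 0.25 (SE 0.45, edgeR adjusted p = 0.989). In the test of the difference between these effects Vim was at 1.28 (SE 0.78, edgeR adjusted p = 0.981), and at -0.23 (SE 0.41, edgeR adjusted p = 0.891) without both libraries.

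Aqp4, the water channel of astrocyte end feet, differed little between groups. It was at 2140.4, 2348, 1829 and 1512 CPM in WT sham and 2663, 1948, 2164 and 2023 CPM in WT SNI. The KO sham values were 2052.5, 1845, 1883 and 2431 CPM, and the KO SNI values 2284, 1953, 1682 and 2191 CPM. The 4 ranges overlapped, and WT sham replicate 4 was the lowest of the 16 libraries for Aqp4 as it was for Gfap. The SNI effect was 0.17 in WT (SE 0.14, 1.12-fold, 95% interval 0.910 to 1.39) and -0.02 in KO (SE 0.14, 0.988-fold, 0.800 to 1.22) on the log2 scale, with edgeR adjusted p = 0.999 and 0.997. Changes over 1.5-fold in either direction lay outside both intervals.

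The glutamate transporters clear the transmitter that primary afferents release in the dorsal horn. GLT-1, the product of Slc1a2, is known as an abundant astrocyte transporter, while the ID given for it held 65.6 to 163 CPM. Its pairing with that name could not be checked. CPM is not compared between genes here, so this level does not tell whether the pairing is right. This ID was at 109, 128, 118.5 and 70.5 CPM in WT sham and 163, 82.8, 128 and 94.1 CPM in WT SNI. It was at 148, 129, 121 and 161 CPM in KO sham and 137, 91.0, 65.6 and 138 CPM in KO SNI. Among the KO libraries, 2 of the 4 SNI values lay below the lowest sham value and the other 2 lay inside the sham range. The log2 fold change after SNI was -0.37 in KO (SE 0.25, unadjusted p = 0.160, edgeR adjusted p = 0.995) and 0.14 in WT (SE 0.25, edgeR adjusted p = 0.999). The interval was 0.531-fold to 1.12-fold in KO and 0.755-fold to 1.60-fold in WT. With single libraries left out, the WT value ran from -0.06 (without WT SNI replicate 1) to 0.27 (without WT SNI replicate 2), and it was also below 0, at -0.02, without WT sham replicate 4. The KO value ran from -0.51 (without KO SNI replicate 4) to -0.20 (without KO SNI replicate 3).

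Slc1a3, which encodes GLAST, was tighter. It was at 239, 170.5, 225 and 195 CPM in WT sham and 241, 219, 230.3 and 226 CPM in WT SNI. KO sham gave 257, 233, 238 and 290.3 CPM, and KO SNI 224, 232, 184 and 251.5 CPM. The highest WT sham library lay above 2 of the KO sham libraries, so the genotypes overlapped. The sham means were 207 ± 30.6 CPM for WT and 255 ± 25.9 CPM for KO (both SD, n = 4). The log2 fold change of KO against WT after sham was 0.30 (SE 0.11, unadjusted p = 0.0159, edgeR adjusted p = 0.882), or 1.23-fold (95% interval 1.05 to 1.44). Its p ranked 152 among 15237 genes, and 3.81% of all genes had an unadjusted p under 0.05 in this comparison. Without WT sham replicate 2, the lowest Slc1a3 library, the value was 0.21 (SE 0.10, unadjusted p = 0.0569).

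After SNI, Slc1a3 had means of 229 ± 9.32 CPM in WT and 223 ± 28.2 CPM in KO (both SD, n = 4). The log2 value of KO against WT was -0.04 (SE 0.11, edgeR adjusted p = 1.0). The SNI effect was 0.14 in WT (SE 0.11) and -0.19 in KO (SE 0.11). The difference between these effects was -0.33 (SE 0.16, unadjusted p = 0.0474, edgeR adjusted p = 0.981), so it did not pass the threshold. Without WT sham replicate 2 it was -0.25 (SE 0.14, edgeR unadjusted p = 0.0928). In the interaction 2.99% of all genes had an unadjusted p under 0.05 and 0% were called. For Slc1a2 the same difference was -0.51 (SE 0.36, edgeR adjusted p = 0.981), with an interval from -1.27 to 0.25. A lower SNI effect in KO than in WT was thus the fitted direction for both transporters, and neither difference passed the threshold. The direction was not particular to them. Aqp4 (-0.19) and Gfap (-0.06) shared it, which made 4 of the 7 genes, and the remaining 3 went the other way. Over all genes 52.4% of these differences were above 0, so this split does not set the 7 apart. Gja1 was at 0.0022 (SE 0.13). Without WT sham replicate 2 and KO SNI replicate 1, Vim (-0.23) and S100b (-0.23) were below 0 as well. Slc1a2 was then at -0.74, Gfap at -0.51, Aqp4 at -0.35 and Slc1a3 at -0.25, and only Gja1 (0.09) lay above 0. None of these was called (lowest edgeR adjusted p = 0.695, for Gfap).

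**Figure D2:**
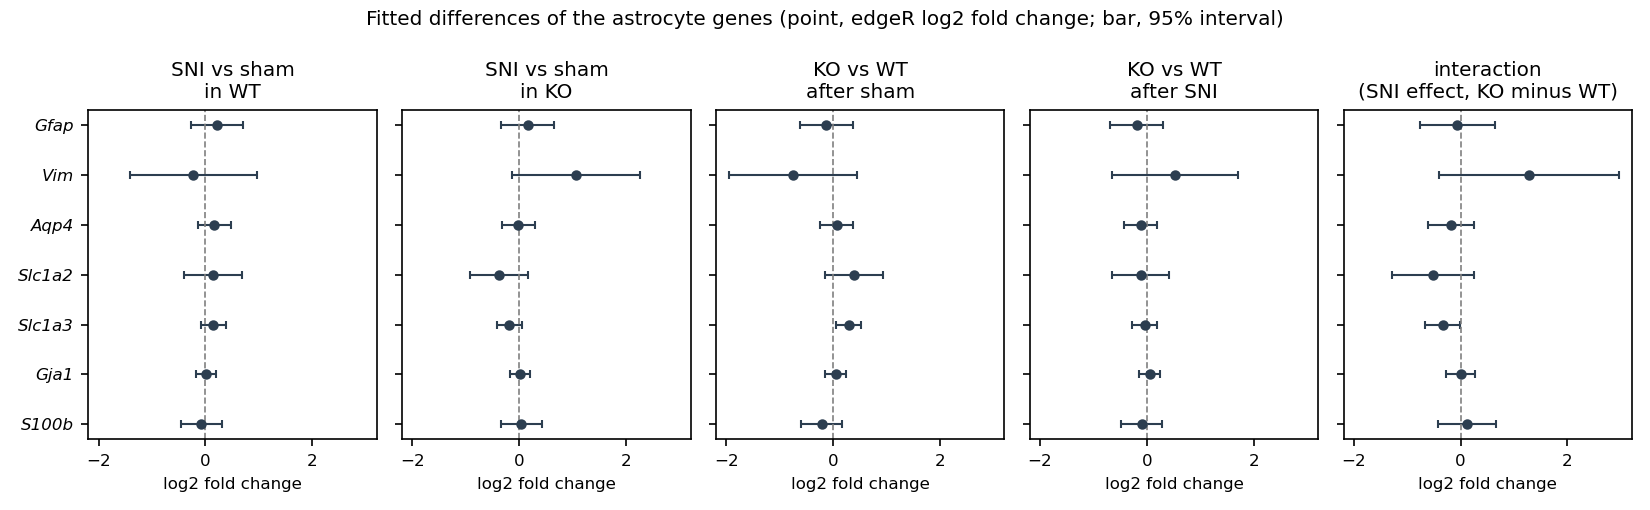
Fitted log2 fold changes (horizontal axes) of the 7 genes in 4 comparisons between groups and in the interaction, where points are edgeR estimates and bars 95% intervals. Every interval includes 0 except those of Slc1a3 in KO against WT after sham (0.06 to 0.53) and in the interaction (-0.66 to -0.0043); none of the values passed the adjusted threshold, and the Vim intervals are the widest.

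Gja1, which encodes connexin 43 of the astrocyte gap junction, was the steadiest gene of the set. It was at 374, 327, 376 and 336 CPM in WT sham and 388, 371, 325 and 339 CPM in WT SNI. KO sham gave 372, 327, 366 and 397 CPM, and KO SNI 328, 377, 344.5 and 425 CPM. The ratio of the highest to the lowest of the 16 libraries was 1.31 for Gja1, against 8.0 for Vim and 2.33 for Gfap. The SNI effect was 1.01-fold in WT (95% interval 0.880 to 1.15) and 1.01-fold in KO (0.882 to 1.15), with edgeR adjusted p = 1.0 and 0.997. Changes in Gja1 of more than 1.15-fold up or 0.880-fold down therefore lay outside these intervals.

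S100b, the calcium-binding protein used as a marker of mature astrocytes, was at 2058, 3383, 1799 and 1784 CPM in WT sham and 2456, 2088, 1782 and 2222 CPM in WT SNI. In KO sham it was at 2327, 1911, 1846 and 1708 CPM, and in KO SNI at 2352, 1744, 1965 and 1953 CPM. WT sham replicate 2 was the highest library, as it was for Gfap, and the other 15 lay between 1708 and 2456 CPM. The SNI effect on the log2 scale was -0.08 in WT (SE 0.18, edgeR adjusted p = 0.999) and 0.04 in KO (SE 0.18, edgeR adjusted p = 0.995). Without WT sham replicate 2 the WT value turned to 0.18 (SE 0.12, edgeR adjusted p = 0.821).

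Between genotypes, the fitted folds of Gfap, Aqp4, Gja1 and S100b lay between 0.864 and 1.05. Those of Vim, and of Slc1a2 and Slc1a3 (1.23-fold) after sham, lay further from 1. After sham, KO against WT was 0.917-fold for Gfap (95% interval 0.651 to 1.29), 1.05-fold for Aqp4 (0.850 to 1.29), 1.03-fold for Gja1 (0.905 to 1.18) and 0.864-fold for S100b (0.663 to 1.13). Slc1a2 was 1.31-fold (0.903 to 1.91) and Vim 0.595-fold (0.260 to 1.36), and without WT sham replicate 2 the log2 values were -0.06 for Vim, 0.14 for Gfap and 0.05 for S100b. After SNI, Gfap was 0.880-fold (0.625 to 1.24), Aqp4 0.922-fold (0.747 to 1.14), Slc1a2 0.922-fold (0.635 to 1.34), Gja1 1.04-fold (0.907 to 1.18), S100b 0.937-fold (0.719 to 1.22) and Vim 1.45-fold (0.639 to 3.28). Without KO SNI replicate 1 the log2 value of Gfap was -0.37 (SE 0.23, edgeR adjusted p = 0.924), against -0.18 with all libraries, and with WT sham replicate 2 left out as well it stayed at -0.37 (SE 0.17, unadjusted p = 0.0495, edgeR adjusted p = 0.676). Without KO SNI replicate 1 the Vim value turned to -0.28 (SE 0.46, edgeR adjusted p = 0.969). The edgeR adjusted p was 0.882 to 0.926 for the 7 genes after sham and 1.0 for each of them after SNI.

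Averaging over genotypes sets 8 SNI against 8 sham libraries and narrows the intervals. In that comparison 0 of the 7 were called, against 0.912% of all genes, and every edgeR adjusted p was 1.0. Gfap was 1.14-fold (95% interval 0.893 to 1.45), Vim 1.33-fold (0.746 to 2.38), Aqp4 1.05-fold (0.908 to 1.22), Slc1a2 0.921-fold (0.707 to 1.20), Slc1a3 0.984-fold (0.878 to 1.10), Gja1 1.01-fold (0.916 to 1.11) and S100b 0.987-fold (0.818 to 1.19). The 7 genes split into 4 above and 3 below sham, where 48.4% of all genes lay above it. Their median was 0.01 on the log2 scale, beside a median of -0.0036 over all genes. A rise of Gfap over 1.45-fold at this time therefore lay outside the interval. Without WT sham replicate 2 the Gfap value was 0.32 on the log2 scale (SE 0.14, unadjusted p = 0.0339, edgeR adjusted p = 0.502). Without KO SNI replicate 1 it was 0.09 (SE 0.16), and the Vim value was 0.01 (SE 0.31). For KO against WT averaged over operations, 0 of the 7 were called, against 0.0131% of all genes, with folds from 0.898 for Gfap to 1.10 for Slc1a2.

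Within groups, the genes differed in how far their libraries spread. Over 10427 genes whose average log2 CPM reached 3, the median SD within groups was 0.15 on the log2 scale. Vim had an SD of 0.78, above 99.1% of these genes, Slc1a2 0.40, above 94.8%, and Gfap 0.36, above 93.2%. S100b had 0.27 and Aqp4 0.22. Slc1a3, at 0.16, and Gja1, at 0.13, lay near the median. Without WT sham replicate 2 and KO SNI replicate 1, the SD fell to 0.42 for Vim, 0.25 for Gfap and 0.16 for S100b, and was still 0.40 for Slc1a2, then above 98.8% of genes. The filament genes and Slc1a2 thus varied most of the 7 between libraries of the same group, and the spread of Slc1a2 was as large without the libraries that stood apart.

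The genes did not vary as a single block. The correlations below are across the 16 libraries on log2 CPM and are given as a description with no test. Each library gives all 7 values, so the genes share its depth, scaling and dissection. Gfap and Aqp4 varied together (Pearson r = 0.859, Spearman rho = 0.844), and r was 0.871 after each group's mean was removed. Leaving out the 2 libraries farthest from the Gfap median gave r = 0.806. Aqp4 and Slc1a2 also varied together (r = 0.787, rho = 0.747), with r = 0.673 without the 2 libraries farthest from the Aqp4 median. For Slc1a2 and Slc1a3, r was 0.608 and rho 0.694, and r was 0.364 without the 2 farthest libraries and 0.874 without those that stood apart.

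Vim had negative or low correlations with the membrane genes. Its r was 0.209 with Aqp4 and 0.04 with Slc1a2, and -0.166 and -0.279 over 14 libraries. It was -0.643 with Gja1 (rho -0.624) and -0.561 with Slc1a3 (rho -0.541), and these 2 were -0.554 and -0.515 without WT sham replicate 2 and KO SNI replicate 1, which were also the libraries farthest from the Vim median. Between the filament genes, r was 0.570 (rho 0.418) over 16 libraries and 0.154 over the 14 without that pair, so their relation rested on those libraries. S100b went with Gfap (r = 0.749, rho = 0.638, and 0.679 without the 2 farthest libraries), while its r with Slc1a3 was -0.445 over 16 libraries and 0.04 over 14. Of the 21 pairs of genes, 15 had a positive r over 16 libraries and 17 over the 14, where all 4 negative ones involved Vim.

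**Figure D3:**
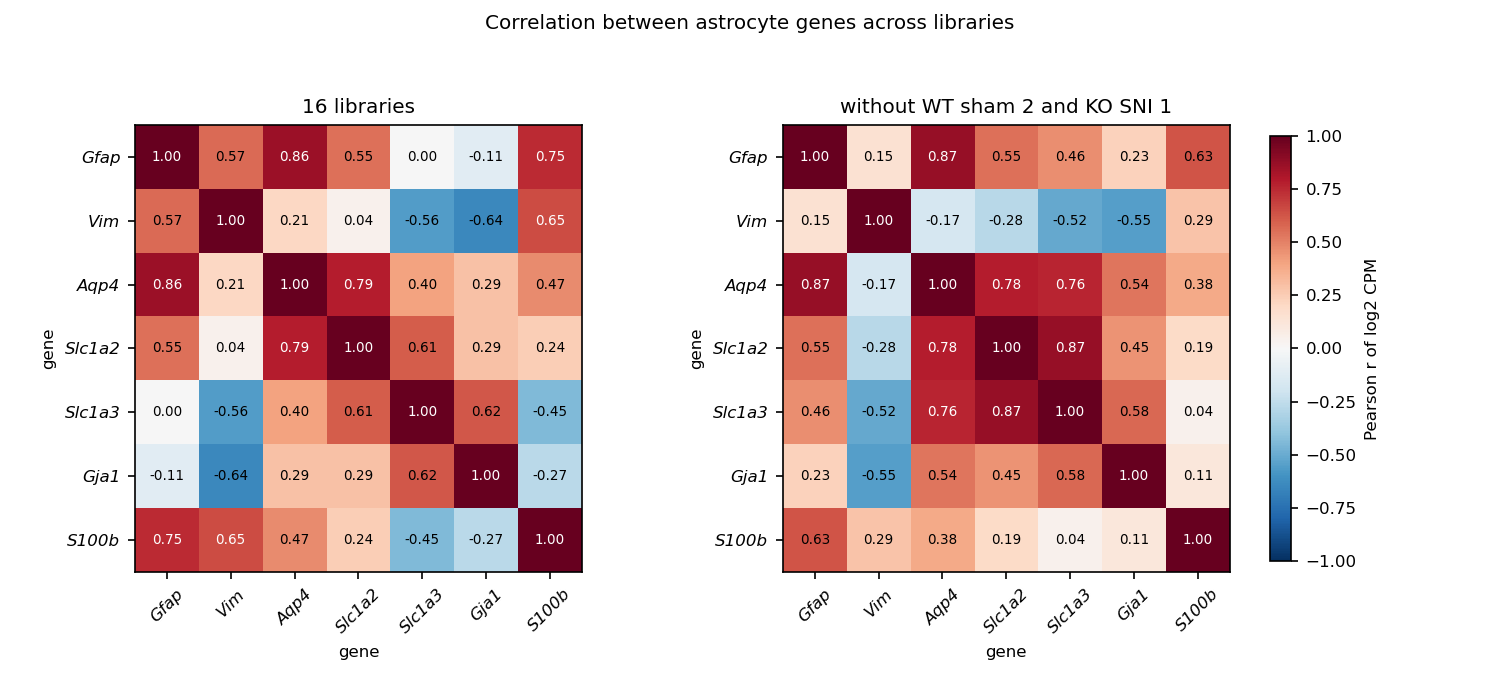
Pearson r of log2 CPM between the 7 genes (both axes), over 16 libraries on the left and over 14 on the right. Gfap with Aqp4 is high in both (0.859 and 0.868), Slc1a2 with Slc1a3 is higher on the right (0.608 and 0.874), and Vim is negative with Slc1a3 and Gja1 in both.

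**Figure D4:**
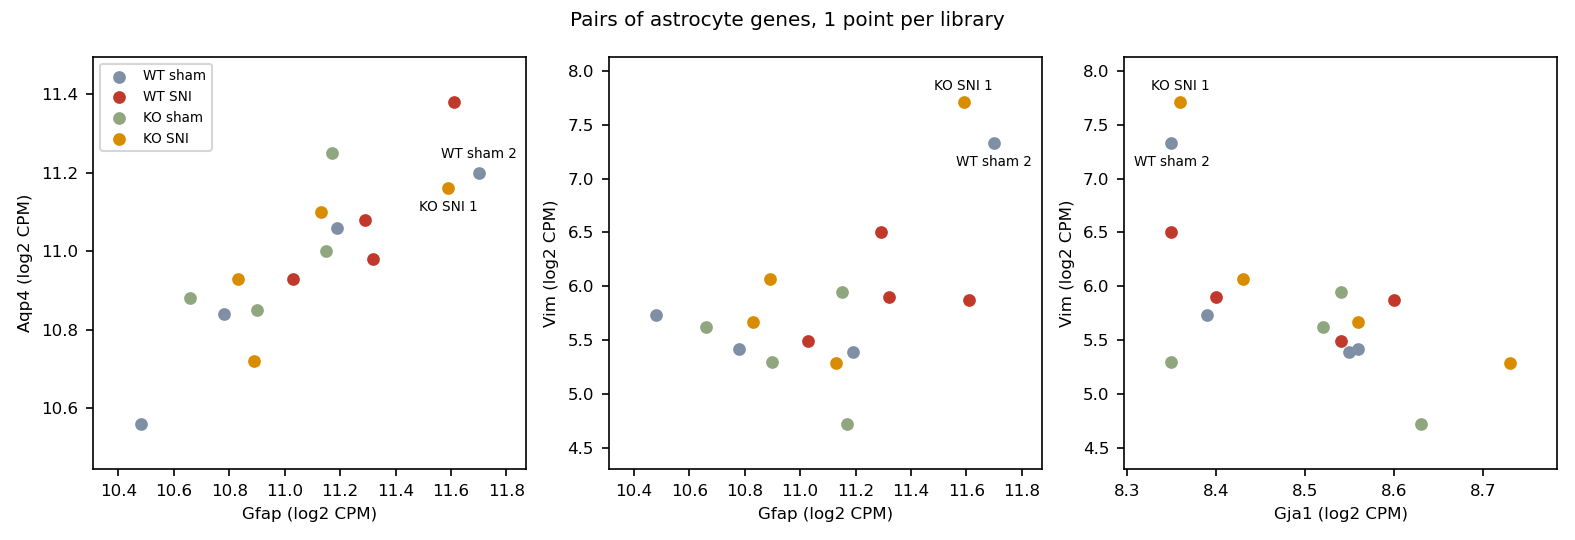
Log2 CPM of 3 gene pairs, with 1 point per library coloured by group. Aqp4 goes up with Gfap across libraries of all groups, and Vim does so mainly through WT sham replicate 2 and KO SNI replicate 1. The 3 libraries highest in Vim have Gja1 at 325 to 328 CPM. KO sham replicate 2, low in Vim (39.2 CPM), has Gja1 in that range too (327 CPM).

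Gfap was also read relative to the membrane genes of the same library. Gene lengths were not used, so only how this relative value changed between libraries can be read, not its level. As a description with no test, Gfap minus the mean of Aqp4, Slc1a2, Slc1a3 and Gja1 on the log2 scale was 2.60 ± 0.44 in WT sham and 2.76 ± 0.11 in WT SNI (SD, n = 4 each). It was 2.32 ± 0.15 in KO sham and 2.62 ± 0.29 in KO SNI. Both pairs of groups overlapped. The KO sham libraries ranged from 2.11 to 2.46 and the KO SNI libraries from 2.37 to 2.98. In WT the 4 SNI libraries lay between 2.63 and 2.88, above WT sham replicates 1, 3 and 4 (2.25 to 2.62) and below WT sham replicate 2, at 3.21.

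Of 10420 other genes that reached the same average log2 CPM, those most like Gfap across the 16 libraries were ENSRNOG00000019730 (r = 0.968) and ENSRNOG00000004932 (r = 0.922). They were again the closest without the libraries that stood apart (r = 0.957 and 0.906 over 14 libraries). The files pair neither ID with a name. The closest gene had an r of 0.937 for Vim, 0.925 for Aqp4, 0.963 for Slc1a2, 0.95 for Slc1a3, 0.883 for Gja1 and 0.942 for S100b. An r of at least 0.9 was reached by 17 genes for S100b over 16 libraries and by 3 over 14, and by 11 and 0 genes for Vim. For Slc1a2 these counts were 7 and 14, for Slc1a3 8 and 8, for Gfap 4 and 2, for Aqp4 1 and 3, and for Gja1 0 and 0. An r of -0.9 or lower was reached by 42 genes for S100b over 16 libraries and 1 over 14, by 4 and 3 for Gfap, by 1 and 2 for Aqp4, and by 0 in both sets for the other 4 genes.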

How the data were processed

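The mRNA of 16 dorsal horn libraries was profiled from stranded TruSeq libraries, per the labels' protocols. The authors deposited 1 table of expected counts per Ensembl gene, of which 96.4% of values were whole (tolerance 1e-09). Per the submitters' processing notes, the tools were RSEM 1.3.1, STAR 2.7.9a and fastp 0.22.0 and the build was mRatBN7.2, with no roles given, and the annotation, strand setting and filters were not given in those sources. RSEM can divide reads that match several genes, so a gene with a near copy is less certain.

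Counts were rounded, filtered with filterByExpr (minimum count 10), scaled by TMM and fitted in edgeR 4.0.16 (R 4.3.3) by robust quasi-likelihood with a mean per group over all 16 libraries, so the 4 groups shared 1 estimate of the spread. P-values were adjusted by Benjamini-Hochberg over 15237 genes, with a threshold of 0.05. The 95% intervals are from the same fit. Log2 CPM used a prior count of 2. The fit was tested on simulated data. Alternatives were RLE and upper quartile scaling, no filter, DESeq2 1.42.0, limma 3.58.1 voom, the replicate number as a block, only the libraries compared, and leaving out libraries. No pair of the 120 pairs of libraries agreed within sampling noise.

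The members, gene lists and comparisons were chosen with earlier results of these data known. All 7 members are named whatever they showed. Lists of other astrocyte, reactive and cell type genes had been set by symbol and were not used. The reference table of 47357 genes gave an Ensembl ID for 0 of them, so none of the 30560 IDs could be matched to a symbol. For the same reason the targeted gene was not analysed here. The 2 genes most like each member across libraries were found by Pearson r; their IDs carry no names, and only those for Gfap are printed.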

Additional observations from a re-analysis of the deposited data

Results flagged for a closer look

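Across the genes followed here and the groups, 28 sets of 4 libraries were examined, each set being a gene in a group. A level far from the rest of its group was found in 2 of these 28 sets, both for Vim. The rule compares the gap to the next library with the range of the set. It flags about 1 in 20 sets where values are independent and normally spread, and this count alone is near that. The sets share their libraries, and the rate over all genes was not computed. Vim in WT sham replicate 2 was at 160.9 CPM, where the other 3 of its group had 41.8 to 53.1 CPM. Vim in KO SNI replicate 1 was at 209.6 CPM, where the other 3 of its group had 39.1 to 67.1 CPM. These are the libraries with the lowest median correlation to the others. In WT sham replicate 2, Gfap, Aqp4, Slc1a2 and S100b were also the highest of their group and Slc1a3 and Gja1 the lowest, and in KO SNI replicate 1, Gfap, Aqp4 and S100b were the highest and Gja1 the lowest. The part of other cells or of RNA quality in these values was not tested.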

How the results depend on the processing

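Over 49 member values and 1155 alternative fits of them, 0 fits called a member (lowest edgeR, DESeq2 or voom adjusted p = 0.461, for Gfap after SNI in WT without WT sham replicate 2 and KO SNI replicate 1). The sign changed in 74 of these fits, over 24 of the 49 values, none of which was called. The number of all genes called moved more. After SNI in WT it was 13, but 65 with DESeq2, 0 with limma voom, 45 with the replicate number as a block, 0 over only the libraries compared, 33 without both libraries that stood apart, and 0 to 20 when single libraries were left out (0 without any of 10 of the 16, 20 without WT SNI replicate 4). After SNI in KO it was 16, but 98 with DESeq2, 7 with limma voom, 70 with the replicate block, 4 over only the libraries compared, 10 without both, and 3 to 34 with 1 library left out (34 without replicate 2 of either WT group, 3 without KO sham replicate 2 or 3 or KO SNI replicate 1 or 2). Between genotypes after sham it was 2, but 4 with DESeq2, 1 with the replicate block, over only the libraries compared or without both, and 1 to 2 with 1 library left out. DESeq2 called 1 gene in the interaction (edgeR 0) and 223 in the averaged SNI effect (edgeR 139), where leaving out 1 library gave 81 (WT SNI replicate 2) to 177 (WT sham replicate 2). The cause was not tested. Deviations of same-numbered libraries had r from -0.404 to 0.516 over 16 pairs, and 4 of 16 libraries correlated best with a library of their own number. The labels do not say what a number marks, and correlations this mixed cannot tell whether the numbers pair the samples. With the replicate block Gfap was 0.23 higher after SNI in WT (log2, SE 0.22, edgeR adjusted p = 0.998). Each of the 7 genes had at least 523 counts in every library. The parts of depth and of the spread between libraries in the width of the intervals were not tested.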
